A study of Caenorhabditis elegans with 2 samples.

Results

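The heterochronic genes of Caenorhabditis elegans set the timing of development, and 7 of them were examined for binding by UNC-55, an orphan nuclear receptor related to vertebrate COUP-TF. The genes were lin-14, lin-28, hbl-1, lin-46, lin-41, lin-29 and lin-42, and they were chosen by name, as 7 of 19973 protein-coding genes. The lists of bound regions came from ChIP-seq of the strain NC1639, from late embryos taken whole and with the sexes pooled, in 2 biological replicates of 1 group. The strain carries the integrated array wdIs49 on chromosome III, in which the ttr-39 promoter drives a fusion of UNC-55a with GFP beside a dpy-20 marker. The authors' control library was not analysed here, nor any strain without the fusion. The cells in which the fusion bound DNA cannot be told from whole embryos, and the promoter that drives it is not that of unc-55 itself. The antibody is named by its target alone. A note calls the tag GFP-FLAG, so which epitope was pulled down is not known here. Each locus was taken as the gene body plus 5000 bp on each side (ce11, Ensembl WBcel235). The 7 loci covered 145.5 kb and held 10 of the 2511 regions of the IDR set, which the authors kept by the irreproducible discovery rate, a score of rank agreement between lists. The signal value printed for a region is the authors' own, and rank 1 is the strongest region of a list. Each of the 10 regions has the same signal and rank in the IDR set as in the list from both replicates pooled, so membership does not by itself show that a region was found in each replicate.

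Heterochronic genes order the stages of larval development, and a worm that lacks 1 of them skips or repeats the cell fates of a stage. LIN-14, a nuclear DNA-binding protein, LIN-28, an RNA-binding protein, and HBL-1, a zinc finger factor related to Hunchback, act early and are lowered by microRNAs as the larva grows. LIN-46, a gephyrin-like scaffold, works against HBL-1, and LIN-41, an RNA-binding TRIM-NHL protein, holds back LIN-29, the zinc finger factor of the adult switch. LIN-42 is the homologue of the clock protein Period and rises and falls with the moults. The pathway also acts in motor neurons. DD neurons rewire their synapses in the larva while VD neurons do not. UNC-55 blocks this rewiring in VD neurons, where it keeps hbl-1 low, and lin-14 sets its time in DD neurons. The late embryos used here come before these larval events, so the lists do not show binding during them.

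The DNA at 6 of the 10 IDR summits is shown first, since these windows are what the lists report as bound at hbl-1, lin-14 and lin-42. Each run is 201 bases centred on a summit, from the WBcel235 reference genome (RefSeq), read 5′ to 3′ on the plus strand. Capitals mark 4 short motifs on either strand. AGGTCA is the element that COUP-TF receptors bind, TAATCC is the core recognised by UNC-30, the homeodomain factor of GABA neurons, and GAGAGA and ACGCAG were taken because they are frequent at the summits of this experiment.
hbl-1 upstream, chrX:5818282-5818482: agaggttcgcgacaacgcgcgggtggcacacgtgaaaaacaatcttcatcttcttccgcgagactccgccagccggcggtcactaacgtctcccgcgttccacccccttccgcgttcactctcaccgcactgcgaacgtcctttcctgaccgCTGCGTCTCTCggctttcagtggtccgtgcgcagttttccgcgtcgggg
hbl-1 3′ side, chrX:5828114-5828314: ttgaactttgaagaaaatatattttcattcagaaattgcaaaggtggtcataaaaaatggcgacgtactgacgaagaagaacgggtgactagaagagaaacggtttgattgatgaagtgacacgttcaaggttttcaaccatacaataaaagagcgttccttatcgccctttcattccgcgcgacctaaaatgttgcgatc
lin-14 upstream, chrX:11463617-11463817: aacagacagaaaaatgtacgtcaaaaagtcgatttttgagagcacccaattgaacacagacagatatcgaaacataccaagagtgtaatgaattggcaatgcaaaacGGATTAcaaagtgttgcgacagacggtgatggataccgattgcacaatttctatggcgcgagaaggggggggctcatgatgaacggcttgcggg
lin-14 intron, chrX:11467395-11467595: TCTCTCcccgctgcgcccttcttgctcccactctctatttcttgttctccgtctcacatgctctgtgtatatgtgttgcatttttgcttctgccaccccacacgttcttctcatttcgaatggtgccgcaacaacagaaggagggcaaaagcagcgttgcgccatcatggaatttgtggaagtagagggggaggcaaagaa
lin-42 long intron, chrII:1246939-1247139: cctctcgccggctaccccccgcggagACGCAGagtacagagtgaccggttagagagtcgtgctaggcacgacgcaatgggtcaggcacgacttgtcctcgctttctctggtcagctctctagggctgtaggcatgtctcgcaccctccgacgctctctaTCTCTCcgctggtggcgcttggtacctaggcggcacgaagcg
lin-42 inner intron, chrII:1242614-1242814: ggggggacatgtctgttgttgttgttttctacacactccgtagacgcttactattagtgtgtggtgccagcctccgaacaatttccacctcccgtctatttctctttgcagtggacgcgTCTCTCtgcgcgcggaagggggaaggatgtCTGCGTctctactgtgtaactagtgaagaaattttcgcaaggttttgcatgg
The hbl-1 upstream window and both lin-42 windows held GAGAGA and ACGCAG together, read as TCTCTC or CTGCGT on the plus strand except for ACGCAG in the long intron of lin-42. In the hbl-1 window the 2 motifs share a base. The lin-14 intron window held GAGAGA at its very edge, 97 bp from the summit. The lin-14 upstream window held TAATCC 10 bp from the summit, read as GGATTA. The hbl-1 3′ window held none of the 4 motifs. AGGTCA was in none of the 6 windows.

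Of the 7 genes, 5 had an IDR region in the locus: lin-14, hbl-1, lin-28, lin-41 and lin-42. Among all protein-coding genes the share was 24.6%. At least 2 IDR regions lay at 4 of the 7 genes, against 5.86% of all genes. The longer a locus, the more regions it can hold, and 6 of these 7 loci were longer than the median over all genes, with a median of 17.7 kb. Among the 3233 genes with a locus of at least 15 kb, a limit chosen after seeing the data, 37.5% had an IDR region, and 4 of the 5 timing genes of that size did. Per 100 kb, the timing loci held 6.87 IDR regions, against 2.45 summed over the loci of all protein-coding genes. The pooled list showed the same order with a smaller gap, 48.1 regions per 100 kb against 29.8. These are descriptions of 7 genes picked by name with earlier results of these data known, and no test was made of them.

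**Figure D1:**
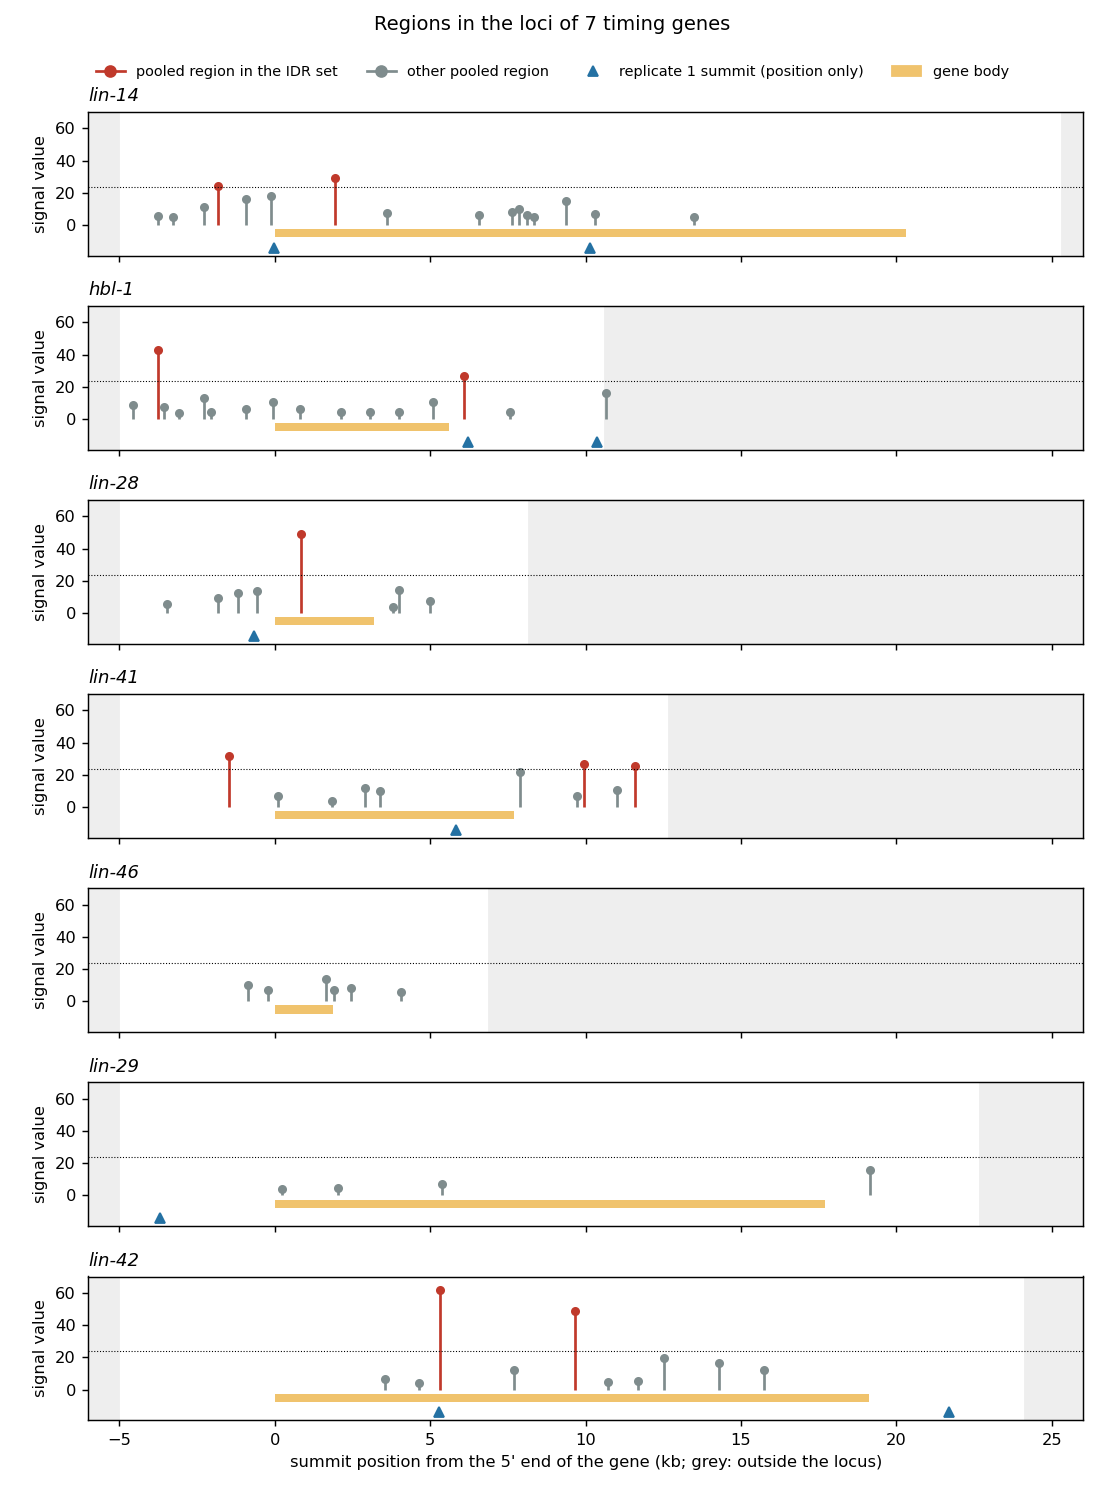
Regions of the pooled list in each locus, drawn by summit position from the 5′ end of the gene in kb and by the authors' signal value, with the gene body as a bar and replicate 1 summits as triangles. The dotted line is the lowest signal of the IDR set, 23.8: 10 regions at 5 genes stand above it, and lin-46 and lin-29 have none there.

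The replicates were compared by overlap in both directions. All 10 IDR regions overlapped a region of replicate 2, and 2 of the 10 overlapped a region of replicate 1, the lin-42 long intron and the hbl-1 3′ side. The hbl-1 region is shared by the rule of 1 bp alone: replicate 1 covers 0.475 of it with a summit 151 bp away, against 0.789 and 37 bp at lin-42. It is no longer counted when the overlap must be at least 0.5 of both regions or the summits within 150 bp. Over the whole IDR set replicate 2 overlapped 2510 of the 2511 regions, so 10 of 10 is no trait of these loci. Replicate 1 overlapped 770 regions, or 30.7%. From the other side, 6 of the 9 replicate 1 regions in the loci overlapped replicate 2, or 66.7%, against 49.3% over the genome. Regions are also denser in these loci, at 48.1 per 100 kb in the pooled list against 29.9 over the genome. The part of density in the overlap was not tested. An IDR region also listed by replicate 1 lay in the loci of 2 of the 7 genes, against 8.45% of all genes. Counted only among genes with an IDR region, it was 2 of 5, against 34.3%. The lists end at different depths. Replicate 1 listed 3577 regions with signal values down to 2.00, and replicate 2 listed 30000, a number shared with the pooled list. The signal is not scaled between lists, so ranks were set side by side instead. The 10 regions ranked 330 to 2156 in replicate 2 and 296 to 2394 in the pooled list. For 8 of the 10, replicate 1 gives no value. The part of read depth in this was not tested, since the depth is unknown.

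**Figure D2:**
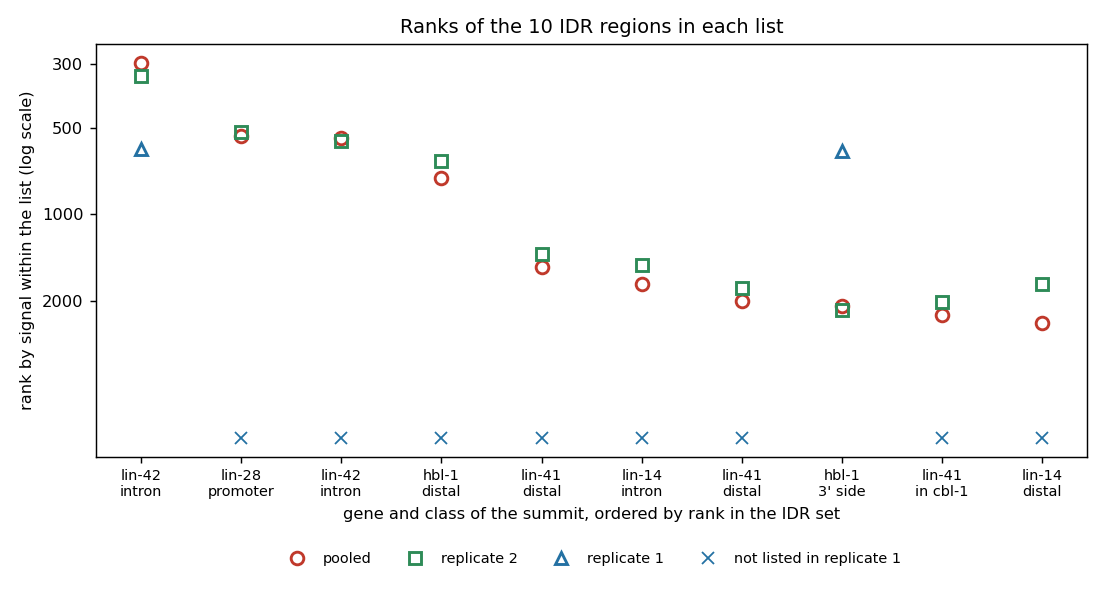
Rank by signal (log scale, strongest at the top) of each of the 10 IDR regions in the pooled list, in replicate 2 and in replicate 1, with a cross where replicate 1 lists no overlapping region. Pooled and replicate 2 ranks lie close together for each region, and replicate 1 has a rank for 2 of them, 593 and 603.

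The early genes were taken first. At lin-14 (WBGene00003003, chrX:11465560-11485871, plus strand) there were 2 IDR regions. The stronger lay in the first intron of the long transcript T25C12.1a.1, a 2818 bp intron, 1935 bp past the start. It had a signal of 29.1 in the pooled list and 30.0 in replicate 2, at ranks 1753 and 1497. The other lay 1843 bp upstream of the gene, beyond the promoter window used here (1000 bp upstream to 200 bp downstream of a transcript start). Its pooled signal of 24.5 stood just above the lowest signal of the IDR set, 23.8. Neither was listed by replicate 1. Replicate 1 instead listed a region with its summit 42 bp upstream of the lin-14 start, at rank 1692 and signal 2.82. It overlapped a pooled region with a summit 125 bp upstream, at rank 3885, and a replicate 2 region at rank 5913. The lin-14 promoter was thus listed in both replicates but stood outside the IDR set. Its window is shown for that reason.
lin-14 promoter, chrX:11465335-11465535: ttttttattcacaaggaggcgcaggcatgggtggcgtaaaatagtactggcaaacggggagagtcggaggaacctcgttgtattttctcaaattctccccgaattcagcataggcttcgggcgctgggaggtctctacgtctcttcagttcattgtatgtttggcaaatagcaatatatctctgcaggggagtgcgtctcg
It held none of the 4 motifs. Replicate 1 had a further region 10138 bp into the gene, at rank 3341, which overlapped weak regions of replicate 2 and the pooled list, at ranks 19815 and 14204.

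At hbl-1 (WBGene00001824, chrX:5822142-5827755, plus strand) the stronger IDR region was distal, 3760 bp upstream of the gene. It had a signal of 43.0 in the pooled list at rank 745, and of 42.6 in replicate 2 at rank 649. The nearest protein-coding start was that of hbl-1, and the summit lay inside the annotated non-coding RNA gene F13D11.21. The nearest replicate 1 summit was 6231 bp away. The weaker region lay 459 bp past the 3′ end of hbl-1 and 1221 bp before the start of the next gene, acp-5. Its signal was 26.5 in the pooled list, 24.7 in replicate 2 and 4.26 in replicate 1, at ranks 2086, 2156 and 603. The replicate 1 summit was 151 bp away. No IDR summit lay in either promoter window of hbl-1. The strongest pooled region there, 48 bp upstream of the first start, had a signal of 10.5 and rank 7926. Replicate 2 ranked it 8819, and replicate 1 did not list it.

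At lin-28 (WBGene00003014, chromosome I from 8407630 to 8410804, minus strand) the IDR region was the 1 of the 10 in a promoter window of its own gene. Over all genes, 7.34% had such a summit. It lay 30 bp upstream of the start of the shorter transcript F02E9.2b.1, which is also inside the first intron of F02E9.2a.1. The signal was 48.9 in the pooled list and 46.7 in replicate 2, at ranks 531 and 514. Replicate 1 had no region there. It listed a region 664 bp upstream of the first start, at rank 2525 and signal 2.39, in sequence shared with the promoter window of the neighbouring gene F02E9.7. That region overlapped a pooled region of rank 5405 and signal 14.1, and a replicate 2 region of rank 5469. The region upstream of the first start was therefore in both replicates and outside the IDR set, and the region at the inner start was in the IDR set and in replicate 2. The window around the IDR summit held AGGTCA, 54 bp from the summit, and GAGAGA, which shares a base with it.

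Among the later genes, lin-41 (WBGene00003026, chromosome I from 9334800 to 9342496, minus strand) had 3 IDR regions, all outside the gene. The count rests on the flank: lin-41 had 1 region with a flank of 2 kb and 0 with 1 kb. Among IDR regions above the median signal lin-41 had 0, as did lin-14. The strongest lay 1460 bp upstream, on the 3′ side of the neighbour M04C9.2, with a signal of 31.5 in the pooled list and 31.3 in replicate 2. The next lay 2243 bp past the 3′ end, at 27.1 and 27.3. It stood inside the non-coding RNA gene C12C8.8 and 389 bp from the microRNA gene mir-79. The weakest, at 25.4 and 25.5, lay 3877 bp past the 3′ end of lin-41 in the 3′ end of cbl-1, so it belongs to the lin-41 locus by distance alone. A pooled region just past the 3′ end of lin-41 had a signal of 22.1 at rank 2851, just under the lowest IDR signal. None of the 4 was listed by replicate 1, whose region in this locus was exonic, at rank 2327, and overlapped nothing in the other lists. The lin-41 promoter window held a pooled region of signal 6.76 at rank 14946.

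lin-46 (WBGene00003031, chrV:12968855-12970730, plus strand) had 0 IDR regions and 0 replicate 1 regions. Its strongest pooled region, of signal 13.9 and rank 5512, lay in an exon of lin-46 that is also in a promoter window of the neighbour pnn-1. The pooled regions in its own promoter window, which neighbours share, ranked 8534 and 13594, and replicate 2 ranked the overlapping regions 16479 and 10720.

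lin-29 (WBGene00003015, chrII:11917642-11935343, minus strand) also had 0 IDR regions. With 4 pooled regions in 27.7 kb it was the emptiest of the 7 loci, and the strongest of these, of signal 15.7, lay in promoter windows of the neighbours hmg-12 and vps-15. The 3 pooled regions inside the gene were intronic, with signals of 6.90, 4.64 and 3.90, the last at rank 29592, near the end of that list. Replicate 1 listed a region 3703 bp upstream of lin-29, at rank 1262 and signal 3.34, which neither replicate 2 nor the pooled list had.

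lin-42 (WBGene00018572, chrII:1233236-1252359, minus strand) had the strongest region of the 7 loci, and it was listed by both replicates under each overlap rule tried. It lay in the 8173 bp first intron of the longest transcripts, 5320 bp past the gene start and 3004 bp upstream of an inner start used by F47F6.1b.1. Its signal was 61.7 in the pooled list, 56.3 in replicate 2 and 4.29 in replicate 1, at ranks 296, 330 and 593, with the replicate 1 summit 37 bp away. The second region lay 1321 bp past that inner start, in a 1979 bp intron, at signals of 48.6 and 45.4 in the pooled list and replicate 2. Replicate 1 did not list it. The gene has 5 annotated starts, and no IDR summit lay in a promoter window of any.

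Placed against every protein-coding gene by the strongest pooled region in the locus, lin-42 stood above 96.9% of genes, lin-28 above 94.4% and hbl-1 above 92.0%. lin-41 stood above 84.0% and lin-14 above 81.8%. lin-29 and lin-46 stood above 61.3% and 57.2%, near the middle. The 2548 genes with no pooled region counted as lower. A longer locus offers more regions from which the strongest is taken, and these shares were not matched for length. The median over the 7 genes was 31.5, against 13.5 over the genes with a pooled region. Most genes had some region in the longer lists. The pooled list had a region in all 7 loci and in 87.2% of all loci, and replicate 2's list in all 7 and in 87.1%. Replicate 1's list had a region in 6 of the 7 loci and in 35.0% of all loci.

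**Figure D3:**
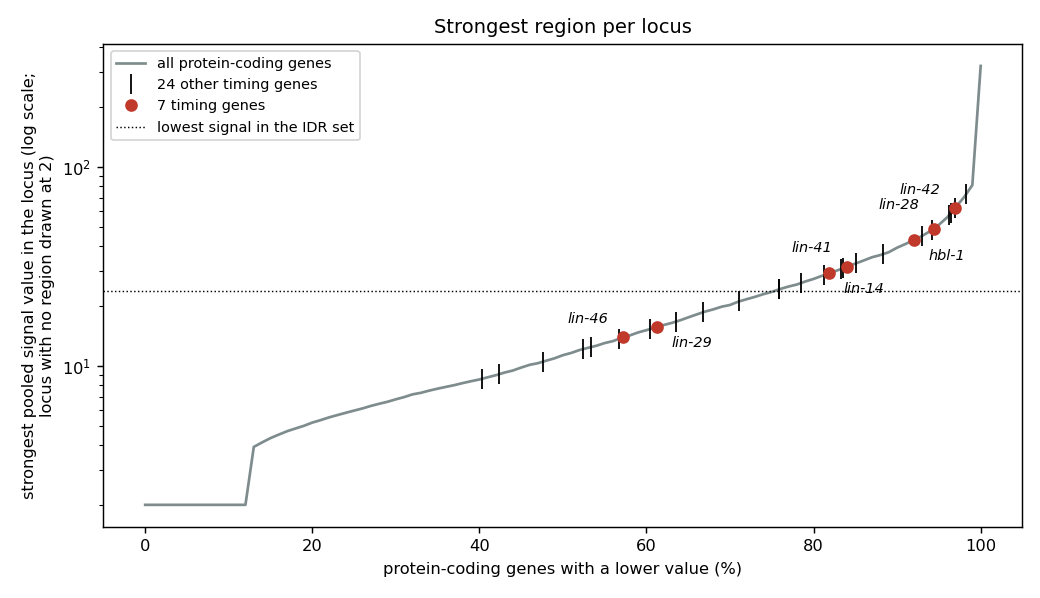
Strongest pooled signal in the locus of each gene (log scale) against the share of protein-coding genes with a lower value, for all genes (line), the 7 timing genes (points) and 24 other protein-coding timing genes (ticks). lin-42, lin-28 and hbl-1 lie at the upper end, and lin-29 and lin-46 lie below the lowest signal of the IDR set. Genes are not matched for locus length.

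By position, few of the IDR regions of the timing loci lay in promoters. Classed against the timing gene itself, 1 of the 10 was in its promoter, 3 were in its introns, 1 was within 1000 bp 3′ of it, 4 were distal and 1 lay inside another gene. Classed against all protein-coding genes, 1 of the 10 was in a promoter window, against 48.8% of the IDR set, and 3 were intronic, against 18.8%. With a wider window, 2000 bp upstream to 500 bp downstream, 4 of the 10 were in a promoter of some gene, against 65.4% of the IDR set, and 3 were in the promoter of the timing gene itself. The difference was not tested, and 10 regions of 5 genes are few. In the pooled list the shares were closer, with 21 of 70 regions in promoter windows, or 30.0%, against 35.6% of the whole list. Intronic regions made up 34.3% of the 70 and 24.7% of the list.

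Other features of the 10 windows were compared with all IDR windows. GAGAGA was in 5 of the 10, against 51.6% of all IDR windows and 13.5% of windows 1000 bp away. ACGCAG was in 3, against 27.4% and 3.50%. Both motifs were picked for being frequent at these summits, so their excess over windows 1000 bp away follows from that choice. Closer in, within 50 bp of the summit, GAGAGA was in 1 of the 10 against 35.2% of all IDR windows, and ACGCAG in 0 against 18.8%. AGGTCA was in 2, at lin-28 and at the lin-41 region near mir-79, against 6.33% and 5.89%, and TAATCC was in 1, against 3.94% and 6.97%. GC content ran from 29.4%, at the lin-41 region in cbl-1, to 62.7%, at the lin-42 long intron, against a mean of 44.6% ± 6.13 (SD over 2511 windows). The hbl-1 upstream and lin-42 long intron windows had more GC than 99.5% and 99.6% of all IDR windows. Of the 10 summits, 4 lay inside genes annotated as non-coding RNA, at lin-14, hbl-1, lin-41 and lin-42. That was so for 9.88% of all IDR summits and 1.55% of positions 1000 bp away. A motif match describes the letters in a window and not a site in use.

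A further 30 genes of the pathway were counted in the same way. Of 24 protein-coding genes, 14 had an IDR region, or 58.3% against 24.6% of all genes, with a median locus of 16.1 kb. These genes, like those above, were chosen with earlier results of these data known. The higher share cannot be taken as independent of that choice. It was not matched for locus length and was not tested. Among partners of the microRNA machinery, nhl-2, a TRIM-NHL cofactor, had a promoter region of signal 73.1, and ain-1, a GW182-like protein, had 2 promoter regions, the stronger at 57.4. The Argonaute genes alg-1 and alg-2 had promoter regions of up to 32.7 and 28.5, and the Dicer gene dcr-1 had none. Among regulators of timing, din-1, which encodes a partner of the receptor DAF-12, had 3 regions of up to 62.3, and puf-9, a Pumilio family gene, had 3 of up to 58.6, the strongest in a promoter window. cki-1, a cell cycle inhibitor gene, had 4 of up to 44.9, and myrf-2, a paralogue of the moulting factor gene myrf-1, had 2, of which the stronger, at 48.0, lay in a promoter window of another gene. The receptor gene daf-12 had an intronic region at 30.9, kin-20, a kinase gene, one at 36.3, and nhr-25 one at 24.2. sea-2 had 2 intronic regions of up to 30.7, and myrf-1 and lin-66 had promoter regions at 26.1 and 24.2. An IDR region overlapped by replicate 1 lay at 5 of the 14, nhl-2, ain-1, alg-1, myrf-2 and cki-1, and at 34.3% of all protein-coding genes with an IDR region, a like share. The 10 with no IDR region were lep-2, blmp-1, dre-1, mab-10, nhr-23, nhr-85, dcr-1, mab-3, dmd-3 and pup-2.

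The 5 microRNA genes of the pathway had no IDR region, and 29.5% of 258 microRNA genes placed by RefSeq had one, so 0 of 5 says little about them. At lin-4, which represses lin-14 and lin-28, the strongest pooled signal was 12.7, and at let-7, which represses lin-41, it was 17.2. Replicate 1 listed 1 region at each, at ranks 3529 and 1543. The strongest pooled signal was 18.9 at mir-84 and 5.47 at the neighbours mir-48 and mir-241, which share that region, and replicate 1 listed none at the 3. The non-coding RNA gene lep-5 had a strongest pooled signal of 6.24.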

How the data were processed

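The data were narrowPeak lists in ce11 coordinates. Per the deposited file descriptions, regions were made against a control alignment from replicate 1, from replicate 2 and from both pooled, and the IDR set was derived from these 3 lists. Which aligner and which caller the authors ran is not stated in the sources used here. The signal value of a region was deposited by the authors relative to the control and is not scaled between lists. A −log10 q-value was deposited with it, which was not used to rank regions because it is the same for every IDR region. Column 10, deposited as the summit's distance from the region start, placed each region. The depth of the libraries is unknown.

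Members and lists were chosen with earlier results of these data known. A region belonged to a locus if it shared at least 1 bp with the gene body plus 5000 bp each side (Ensembl release 115, WBcel235). Around each protein-coding transcript start, 1000 bp upstream and 200 bp downstream counted as promoter. The remaining summits were, in this order, exonic, intronic, on the 3′ side (within 1000 bp of a gene end) or distal. The microRNA genes were placed by RefSeq, and the others by Ensembl. All 30 further timing genes were found. Motifs were searched on both strands within 100 bp of each summit and of a position 1000 bp to its left or right, the side being chosen with a fixed random seed. Python 3.11.15, numpy 2.4.6 and pandas 2.3.3 were used. The code was tested on simulated data. No test between groups was possible with 1 group, so counts are set beside the share of all 19973 protein-coding genes. All 7 members were named, and neighbours where a region lay in their promoter or body. The ce10 lists were not used here, since coordinates were not converted.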

Additional observations from a re-analysis of the deposited data

How the results depend on the processing

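Of 48 alternative values for 13 results, 29 lay within 1.5 times the value reported, and 19 did not. With the gene body plus 1 kb the loci held 5 IDR regions, 0 of them at lin-41. Among IDR regions above the median signal they held 4, at 3 genes. The genes with an IDR region numbered 4917 in all, and 2327, 3057 and 7414 with flanks of 1 kb, 2 kb and 10 kb, 2675 with regions above the median signal and 1213 among loci of 15 kb or more, a limit chosen after seeing the data. The 2511 strongest regions of each replicate were also used alone. Without replicate 1 or without replicate 2, the loci held 10 or 6 regions at 5 genes each, against 24.7% or 26.7% of all genes. These were not the same genes: replicate 1 alone had a region at lin-29 and none at lin-28, where its region ranked 2525, just past the cut. Nor were they the same sites, since only 2 of the 6 overlapped an IDR region, at hbl-1 and lin-42. With promoter windows from 2000 bp upstream to 500 bp downstream, 3 regions were promoter, 0 were on the 3′ side and 2 were distal. Against starts of any protein-coding gene, 1 was exonic and 2 were on the 3′ side. With an overlap of at least 0.5 of both regions, or summits within 150 bp, replicate 1 shared 1 region, at lin-42, and the one lost was at hbl-1. Within 50 bp of the summit, AGGTCA was in 1 window, GAGAGA in 1 and ACGCAG in 0, against 35.2% and 18.8% of all IDR windows for the last pair. The causes were not tested. No paired analysis was possible because the 2 replicates form 1 group. The number of regions in a list may depend on depth and on the settings of the caller, and neither is known. The pooled and replicate 2 lists each held 30000 regions.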

Other observations

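Beyond the 5000 bp flank of hbl-1, the IDR set held 3 more regions within 10 kb of the gene body, which its neighbours also lie near. On the upstream side 2 of them overlapped each other, with summits at -10039 and -9835 bp from the hbl-1 start and ranks 224 and 2019 in the pooled list. The stronger had a signal of 66.7, above every region inside the 7 loci, and a signal of 62.9 in replicate 2. A replicate 1 region of rank 1474 overlapped both. The nearest protein-coding start was that of F13D11.3, not of hbl-1. On the other side a region 15057 bp past the hbl-1 start had signals of 37.8 in the pooled list and 35.9 in replicate 2, and replicate 1 did not list it. Its nearest start was that of F13D11.4, and it is also 1 of the 3 IDR regions counted above in the locus of puf-9. Which gene these regions act on, if any, was not tested.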
